A study of Ovis aries with 41 samples.

Results

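Skin of the tail tip was compared with skin of the tail base in all 7 rams of the series in a single paired test, which asked for changes common to rams of the D/D and of the A/A genotype at HOXB13. The libraries were chosen by their labels alone, as every library labelled tail tip or tail base, which took 28 of 41 libraries, 14 from the tip and 14 from the base. The 13 libraries of the mid-tail were left out of the test and serve below as a description. The animals were adult rams of the Improved Jezersko–Solčava breed, 3 of them D/D (rams 871787, 871868 and 871869) and 4 A/A (rams 835507, 871772, 871784 and 871932). The D allele is the derived, long-tail allele, which carries an insertion in the HOXB13 promoter, and the A allele is the ancestral, short-tail allele without it. The tails of D/D rams were longer, so that tip and base lay farther apart in these animals. Skin was taken as punch biopsies after slaughter and poly(A) RNA was sequenced. Both libraries from one ram at one position were added up, since they come from 1 animal, which gave 14 of the 21 ram sums of the series, and each ram served as its own control.

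HOX genes lie in clusters, and the order of the genes along a cluster follows the order in which they are used along the body axis, with the posterior genes at one end. The same genes mark position in the skin of adult mammals, mainly in dermal fibroblasts. Around them work the limb transcription factors of the T-box and SP families and the hedgehog, Wnt and BMP signals, which pattern appendages in the embryo and hair follicles in the adult. HOXB13, the most posterior gene of the HOXB cluster, limits the growth of the tail bud in mouse embryos.

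The 28 libraries held 9381400 to 23431409 counts (median 14087004), and the 14 ram sums 22194628 to 37645752. The 2 libraries of a ram and position differed by more than sampling noise in each of the 20 pairs of the series that could be compared, and 0 pairs were identical. The labels do not say whether they were separate biopsies, so p-values rest on the spread between rams. Ram 835507 stood apart from the others. The summed level of 22 wool follicle genes, which include the keratins and keratin-associated proteins of the growing fibre, was 1200 CPM (counts scaled to library size with the TMM method of edgeR) at its tip, where the other 6 tips had 17300 to 38200 CPM. Its base had 14400 CPM and the other bases 15600 to 24200 CPM. Keratinocyte, fibroblast, wool follicle and endothelial markers were present at every tip and base, as skin would have them. In whole skin, fewer cells of a type and less RNA per cell cannot be told apart.

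A set of 17475 genes entered the quasi-likelihood F test of edgeR, in which the ram was a block. At an adjusted p under 0.05, 214 genes were higher at the tip (1.22% of those tested) and 246 were lower (1.41%), 460 in all (2.63%). Under stricter thresholds, which asked for an adjusted p no higher than 0.01 and a change of over 1 on the log2 scale, 30 genes were higher and 50 lower, 80 in all (0.458%). The median log2 fold change, tip over base, was 0.95 for the higher genes (range 0.38 to 4.36) and -1.12 for the lower genes (range -6.12 to -0.34), against -0.01 for all genes tested. Of the 460 genes, 404 moved the same way in all 7 rams, as did 1311 of all genes tested (7.5%), and in 80 of them (17.4%) the 7 tips and 7 bases did not overlap in CPM, as in 94 of all genes tested (0.538%). A common direction is part of what a paired test selects, so that these counts describe the called genes. For a single gene that moved the same way in all 7 rams, the exact two-sided sign-flip permutation test can give no p below 0.0156.

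The number of calls rested on which rams were present. Without ram 835507, edgeR called 561 genes higher and 536 lower, and 452 of the 460 genes were among them. Leaving out any 1 of the other rams lowered the calls to between 58 and 151 higher and between 126 and 157 lower, as the plot of calls with each ram left out shows. A core of 144 genes (45 higher and 99 lower) was called in every set of 6 rams, and no gene of the 460 turned its direction in any of them. TBX18, a T-box factor, and XPNPEP2 and PBDC1, which were chosen after their values were seen, were called in none of the sets of 6.

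**Figure D1:**
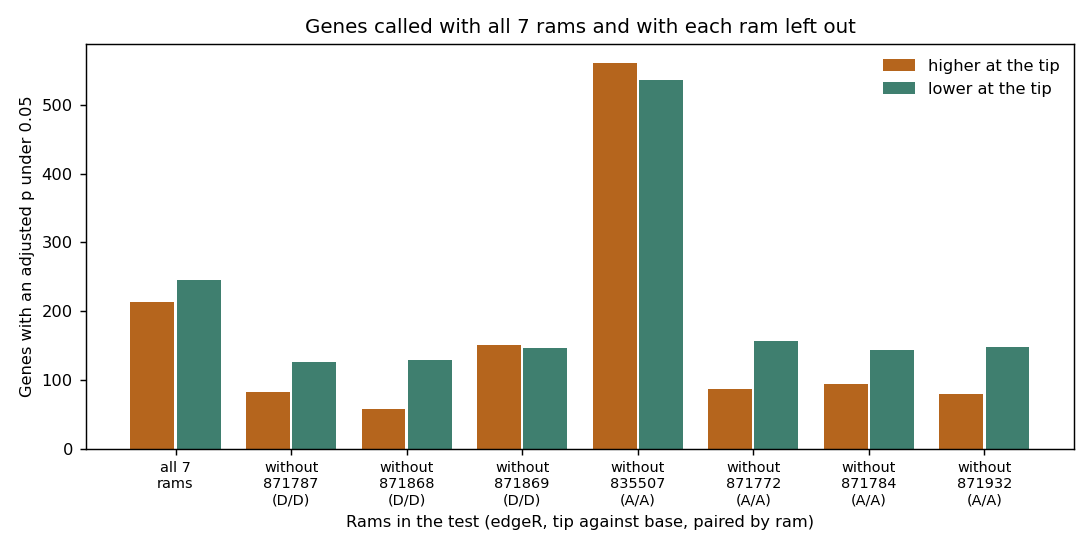
Number of genes with an adjusted p under 0.05 in edgeR (vertical axis), higher (brown) and lower (green) at the tail tip than at the base, with all 7 rams and without each ram in turn. Without ram 835507 the bars reach 561 and 536, while without any other ram they stay at or below 151 and 157.

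Within a genotype far fewer genes passed. In a fit of the same 14 ram sums with a change of its own for each genotype, 21 genes passed in D/D (3 pairs, 0.12% of genes tested) and 81 in A/A (4 pairs, 0.464%). Of the 460 genes, 17 also passed in D/D, 77 in A/A and 12 in both, and 378 passed with 7 pairs and in neither genotype (2.16% of genes tested), 177 of them higher and 201 lower. All 378 had the same sign in both genotypes. An unadjusted p under 0.05 in D/D as well as in A/A was found for 355 of them, against 655 of all genes tested. The choice of genes, made on the same ram sums, largely fixes both counts of these 378. Their median adjusted p was 0.206 in D/D and 0.151 in A/A. They moved less than the genes that also passed within a genotype, with a median log2 fold change of 0.85 against 1.38 for the higher and -1.06 against -1.66 for the lower genes. This difference is in part built into the sets, since passing with only 3 or 4 pairs favours larger changes. Among the higher of these 378 genes the change was larger in D/D for 75 and in A/A for 102. Among the lower it was larger in D/D for 140 and in A/A for 61. Over all genes tested it was larger in D/D for 9378 and in A/A for 8097. No gene passed the test of this difference in this fit, as given below. The set depended on the spread that was used for the single genotypes. When each genotype was fitted on its own, 498 genes passed in D/D and 29 in A/A, 248 of the 460 genes passed in neither, and 223 genes passed in neither genotype in either kind of fit. The 12 genes that passed in both genotypes were SCUBE3, TNC and HOXC10, all higher, and MATN4, IGF2BP2, HTRA3, CCL26, TNXB and 4 genes without a name, all lower. The converse also occurred, since MCF2L, VWA2, CACNA1C and LTBP2, all higher, passed in A/A, and genes such as ADAM28, LOC121818687 and LOC114117992, all lower, passed in D/D, but none of these passed with 7 pairs. Such small sets were named after their values were seen.

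**Figure D2:**
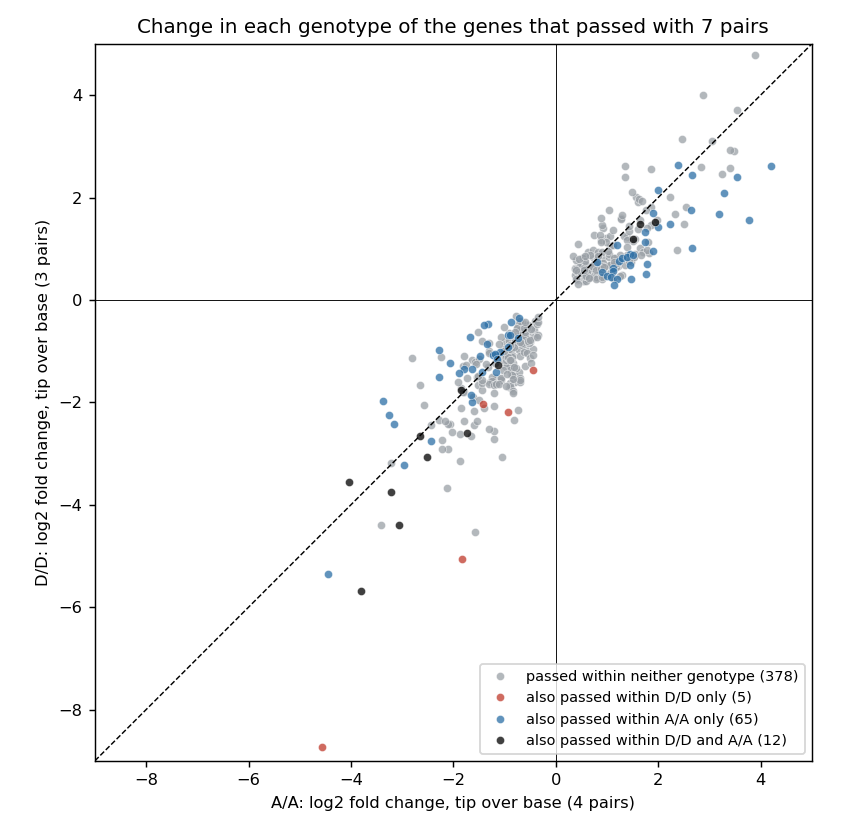
Log2 fold change of tip over base in D/D rams (vertical axis, 3 pairs) and in A/A rams (horizontal axis, 4 pairs) for the 460 genes called with 7 pairs, coloured by whether they also passed within a genotype; the dashed line marks equal change. All 378 grey genes, which passed in neither genotype, lie in the quadrants of equal sign, as their choice largely fixes.

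Several posterior HOX genes of the HOXA and HOXC clusters rose at the tip. Paralog groups 9 to 13 held 16 HOX genes, of which 13 entered the test and 6 rose (1.22% of all genes rose), namely HOXA9, HOXA10, HOXA11, HOXA13, HOXC10 and HOXC11. HOXA13, the last gene of its cluster (chromosome 4, 70422486 to 70435575 of ARS-UI_Ramb_v3.0), had 4.25, 7.72 and 3.4 CPM at the tips of the D/D rams and 7.31, 4.4, 2.95 and 6.18 CPM at those of the A/A rams, against 0.327, 0.861 and 1.3 CPM at the D/D bases and 1.24, 1.5, 0.433 and 0.927 CPM at the A/A bases. Every tip lay above every base, in rams of both genotypes. Its log2 fold change was 2.49 ± 0.27 (SE, edgeR adjusted p = 0.00193). HOXC10 (chromosome 3, 132524743 to 132529862) was the most even of these genes, at 9.78 to 13.5 CPM (median 11.5) over the 7 tips and 3.28 to 5.53 CPM (median 4.3) over the 7 bases. Its log2 fold change was 1.38 ± 0.13 (SE, edgeR adjusted p = 0.000621), and HOXC10 was 1 of the 12 genes that also passed in D/D and in A/A. HOXA10, next to HOXA11 in the same cluster, rose by 1.14 (SE 0.14, adjusted p = 0.00308) and HOXA11 by 1.47 (SE 0.22, adjusted p = 0.00732), both in edgeR and both in 7 of 7 rams. HOXA10, HOXA11, HOXA13 and HOXC10 passed in all 7 sets of 6 rams. HOXA9 and HOXC11 rose by 0.71 and 1.20 (adjusted p = 0.0489 and 0.0402 from edgeR), but HOXA9 missed the threshold without ram 871772, 871784, 871787 or 871932 (up to 0.146) and HOXC11 without any ram but 835507 and 871868 (up to 0.11).

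The HOXB and HOXD members of these paralog groups that entered the test did not pass. HOXB9 had a log2 fold change of -0.41 (adjusted p = 0.245), HOXD9 of -0.08, HOXD10 of 0.04 and HOXD11 of 0.16 (adjusted p = 0.907, 0.943 and 0.815 from edgeR), and the 2 genes at the end of the HOXC cluster, HOXC12 and HOXC13, had 0.24 and -0.32 (adjusted p = 0.745 and 0.486). Over all 13 tested genes of these groups, including any not named here, 9 had a log2 fold change above 0 and 4 below. HOXC13 is also a regulator of hair keratins. Among the 20 tested HOX genes of paralog groups 1 to 8, which are used farther forward in the body, 2 rose and 2 fell. HOXA5 and HOXA6 rose by 0.73 and 1.02, while HOXC5 and HOXC6 fell by 0.83 and 0.66 on the log2 scale (adjusted p = 0.0269, 0.024, 0.0369 and 0.0266 from edgeR), each of them in 7 of 7 rams. Within the HOXC cluster the 2 called genes of low number were thus lower and the 2 of high number higher at the tip. The calls of these lower-numbered genes were less firm, since HOXA5 and HOXA6 missed the threshold without ram 871772, 871784, 871787 or 871869 (adjusted p up to 0.0964 and 0.0797), HOXC6 without any ram but 835507 and 871932 (up to 0.0813), and HOXC5 without any ram but 835507 (up to 0.108).

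**Figure D3:**
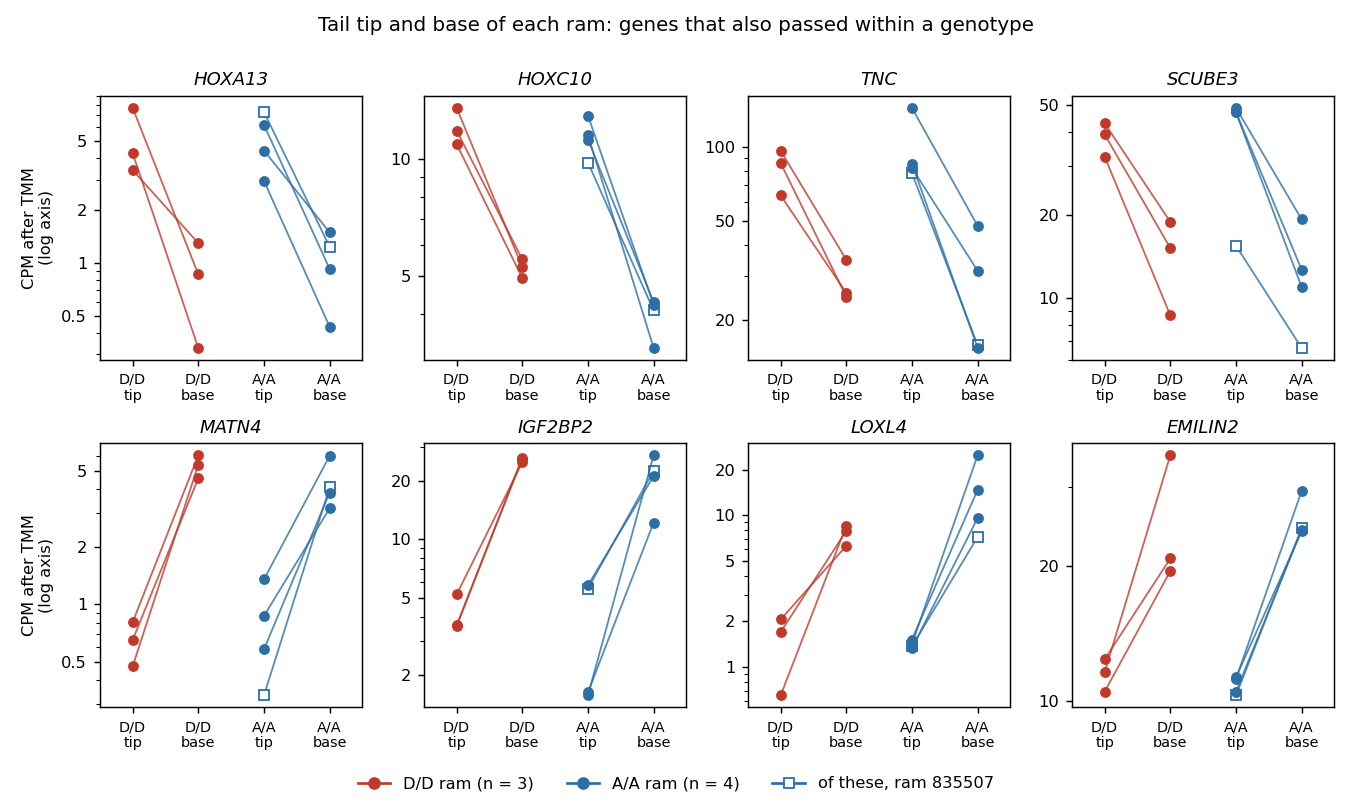
CPM after TMM (vertical, log axis) at the tail tip and base of each ram for 8 genes that passed with 7 pairs and within at least 1 genotype, with a line per ram, D/D in red (n = 3) and A/A in blue (n = 4), and the open square for A/A ram 835507. The 4 genes above are higher and the 4 below lower at the tip in each of the 7 rams, and HOXC10 runs between 9.78 and 13.5 CPM at the tips against 3.28 to 5.53 CPM at the bases.

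HOXB13 and SP8 did not enter the test, since the filter on low counts asked for 10 counts (about 0.366 CPM) in 7 ram sums. Both were nearly absent at the bases, and not all tips reached this level. HOXB13 had 0.253 CPM at its lowest tip, and SP8 a median of 0.325 CPM over the tips. HOXB13 entered only 1 set of 6 rams and was called there (log2 fold change 7.59, edgeR adjusted p = 0.000105). Its bases lay below the filter, so that it could enter only where the ram with the lowest tip was left out. That call is therefore no independent support. HOXB13 (chromosome 11, 37525009 to 37530787) had 636 counts over the 7 tips and 3 over the 7 bases, a ratio of 191 in summed CPM (exact 95% interval 65.1 to 929, which covers counting error only). Its tips had 1.06, 0.474 and 0.253 CPM in D/D rams and 6.61, 5.32, 3.45 and 4.14 CPM in A/A rams, and every one of the 7 lay above all bases, the highest of which had 0.0444 CPM. SP8, a zinc finger factor of the limb bud (chromosome 4, 30451793 to 30456308), had 0.222 to 1.08 CPM (median 0.325) at the tips, against 0 to 0.0444 CPM (median 0) at the bases. In a fit with no filter on low counts, where 2.7% of 26142 genes passed, the adjusted p was 3.87e-06 for HOXB13 and 0.000525 for SP8 with edgeR and 7 pairs. In that fit the change of HOXB13 in D/D minus that in A/A was -2.53 (SE 2.08, edgeR unadjusted p = 0.249). With 3 counts over the 7 bases, the test could hardly find a difference between these changes, and no conclusion is drawn from it. At the tip itself every D/D ram had less HOXB13 than any A/A ram. The paper reports higher expression in A/A there, in part from these same libraries. It also cautions that the longer D/D tail does not allow a direct comparison of the genotypes at this position.

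Among 38 tested transcription factors of limb and appendage development, 2 rose and 1 fell (1.22% of all genes rose and 1.41% fell). TBX3, a T-box repressor of the limb and of the skin appendages, had 14.1 to 23.3 CPM (median 17.4) at the tips, against 5.02 to 10.5 CPM (median 8.64) at the bases, and no tip fell within the range of the bases. Its log2 fold change was 1.09 ± 0.16 (SE, edgeR adjusted p = 0.00668). SP9, the nearest relative of SP8, went the opposite way to SP8. It had 0.145 to 1.37 CPM (median 0.277) at the tips, against 0.725 to 2.13 CPM (median 1.26) at the bases, and fell by 1.88 on the log2 scale (SE 0.29, edgeR adjusted p = 0.00889), in 7 of 7 rams. TBX18 rose by 0.85 (adjusted p = 0.0485 from edgeR) in 7 of 7 rams, with the reserve given above. DLX5 and ALX4, a pair of homeobox genes of the limb, were higher at the tip in 6 of 7 rams without passing the test (log2 fold changes 0.94 and 0.59, adjusted p = 0.0757 and 0.152 from edgeR), and DLX5 passed without ram 835507 (adjusted p = 0.0181).

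Signals and their receptors changed one gene at a time. SCUBE3, a secreted protein that promotes growth factor signalling in the dermal papilla of mice, had 32.5, 39.1 and 42.9 CPM at the D/D tips and 15.5, 47, 47.1 and 48.8 CPM at the A/A tips, against 8.68, 15.2 and 18.9 CPM at the D/D bases and 6.62, 11, 12.7 and 19.3 CPM at the A/A bases. The tip of ram 835507, at 15.5 CPM, was the only tip within the range of the bases. SCUBE3 rose by a log2 fold change of 1.57 ± 0.13 (SE, edgeR adjusted p = 0.000621), and the mean difference over rams was 1.53 ± 0.37 in log2 CPM (SD, n = 7, exact permutation p = 0.0156, the smallest possible). SCUBE3 belongs to the 18 tested hedgehog genes, of which 2 rose. The other was SCUBE2, which helps to release hedgehog from the cells that make it, and it rose by 0.77 (adjusted p = 0.0101 from edgeR). The ligand SHH had a log2 fold change of -1.16 and lower values at the tip in 7 of 7 rams, but did not pass (adjusted p = 0.0757).

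The 32 Wnt ligands and receptors held 3 genes that rose. Over all genes tested 1.22% rose and 1.41% fell, which is the share to set beside this and the other signalling lists. LGR6, a receptor for R-spondins and a marker of epidermal stem cells in mice, had 0.614 to 11.8 CPM (median 6.54) at the tips, against 0.34 to 5.2 CPM (median 1.56) at the bases, and rose by 1.55 ± 0.22 (SE, edgeR adjusted p = 0.00659) in 7 of 7 rams, though the ranges overlapped. RSPO4, an R-spondin needed for nails in humans, rose by 1.40 and WNT4 by 0.95 (adjusted p = 0.0332 and 0.0422 from edgeR). Among 21 Wnt antagonists and targets, the secreted inhibitors SFRP2, DKK3 and WIF1 rose by 0.97, 0.63 and 0.64, while SFRP4 fell by 2.46 on the log2 scale (adjusted p = 0.0326, 0.0188, 0.0328 and 0.0114 from edgeR). SFRP4 had 4.66 to 8.7 CPM (median 7.26) at the tips, against 8.26 to 70.6 CPM (median 50.4) at the bases, and was lower at the tip in 6 of 7 rams. RSPO4, WNT4, SFRP2, DKK3 and WIF1 each missed the threshold without at least 3 of the single rams, 871787 and 871868 among them (adjusted p up to 0.09, 0.115, 0.0945, 0.0715 and 0.106). Of 41 genes of the BMP, GDF and TGF-beta pathway 2 rose and 3 fell, among them the BMP antagonist CHRDL1 with a log2 fold change of -1.31 and the endothelial receptor ACVRL1 with -0.86 (adjusted p = 0.00889 and 0.0107 from edgeR). Of 27 FGF genes, FGF5, which ends the growth phase of hair in several mammals, fell by 1.09 (adjusted p = 0.0489 from edgeR), and it passed in only 1 set of 6 rams, that without 835507 (-0.85, adjusted p = 0.0152).

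Of 19 tested genes of retinoic acid metabolism and signalling 2 fell, namely ALDH1A3, which makes retinoic acid from retinal, and RARRES2, which codes for the attractant chemerin, by 0.68 and 0.74 on the log2 scale (adjusted p = 0.00889 and 0.00324 from edgeR). Among 64 guidance genes 2 rose and 2 fell, where 1.22% of all genes tested rose and 1.41% fell. UNC5C and ROBO2, receptors for netrins and Slits, rose by 1.74 and 1.03, while NRP2 and NTN4 fell by 0.56 and 0.76 on the log2 scale (adjusted p = 0.00554, 0.0202, 0.0202 and 0.0255 from edgeR). Of these, ROBO2 missed the threshold without ram 871772 or 871868 (up to 0.072), NRP2 without 871772, 871784, 871787 or 871932 (up to 0.0565) and NTN4 without any ram but 835507 and 871932 (up to 0.0751). UNC5C had 1.24 to 3.02 CPM (median 2.08) at the tips, against 0.286 to 0.836 CPM (median 0.564) at the bases, with no overlap. Of the 18 genes of the insulin-like growth factor axis 2 fell. STC1, which codes for stanniocalcin, an inhibitor of a protease of IGF-binding proteins, fell by 0.86 on the log2 scale (adjusted p = 0.0123 from edgeR). IGF2BP2, a protein that binds the mRNA of IGF2 and others, had 1.57 to 5.8 CPM (median 3.61) at the tips, against 12.2 to 27.1 CPM (median 25) at the bases. The groups were far apart in both genotypes, and the common log2 fold change was -2.65 ± 0.24 (SE, edgeR adjusted p = 0.000621). Values at the mid-tail lay between, with a median of 11.3 CPM.

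Genes of the extracellular matrix gave many of the changes with the smallest p. Of 55 matrix glycoproteins and genes of elastic fibres, 5 rose and 9 fell. The share to set beside this list and every list below is that of all genes tested, of which 1.22% rose and 1.41% fell. TNC, which codes for tenascin C, a glycoprotein of growing and healing matrix, had 86.1, 96.6 and 63.7 CPM at the D/D tips and 78.4, 85.7, 82.3 and 144 CPM at the A/A tips, against 24.8, 35 and 25.7 CPM at the D/D bases and 15.8, 15.4, 31.6 and 48 CPM at the A/A bases. No tip overlapped the bases, and the log2 fold change was 1.76 ± 0.15 (SE, edgeR adjusted p = 0.000621). COMP and THBS4, thrombospondins of tendon and cartilage, rose by 3.08 and 0.90 (adjusted p = 0.00308 and 0.00554 from edgeR). TNMD, tenomodulin of tendon, rose by 1.81 and the joint lubricant PRG4 by 3.09 (adjusted p = 0.00308 and 0.00338 from edgeR). PRG4 had 20.7 to 160 CPM (median 82.2) at the tips, against 4.83 to 15.2 CPM (median 6.84) at the bases, and its lowest tip, 20.7 CPM in D/D ram 871869, belonged to the ram with the highest base. HAPLN1, which links hyaluronan to proteoglycans, rose by 1.75 ± 0.26 (SE, edgeR adjusted p = 0.007) with no overlap. COMP, THBS4 and TNMD belong to a list of 10 tested tendon markers, of which they were the 3 that rose, and its median log2 fold change was 0.48.

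Other matrix genes were lower at the tip. MATN4, a matrilin, had 0.334 to 1.35 CPM (median 0.651) at the tips, against 3.18 to 6.02 CPM (median 4.57) at the bases, and LOXL4, a lysyl oxidase that cross-links collagen and elastin, had 0.651 to 2.06 CPM (median 1.42) against 6.29 to 24.8 CPM (median 8.55). Neither gene had a tip within the range of the bases. Their log2 fold changes were -2.75 (SE 0.24) and -2.86 (SE 0.28), with adjusted p = 0.000621 and 0.0011 from edgeR. EMILIN2, a glycoprotein of elastic fibres, was at 10.3 to 12.4 CPM (median 11.2) at the tips, against 19.5 to 35.3 CPM (median 24.1) at the bases. Its tips were the most alike of these genes, and it fell by 1.16 ± 0.12 (SE, edgeR adjusted p = 0.0013). TNXB, tenascin X, fell by 2.11 on the log2 scale (SE 0.25, edgeR adjusted p = 0.00272), with 24.1 to 73.9 CPM at the tips, against 102 to 230 CPM at the bases. Its highest tip, at 73.9 CPM, was that of ram 835507, and the log2 fold change without this ram was -2.35.

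Of 43 metalloproteases and inhibitors 4 fell, namely MMP2, ADAMTS2, ADAMTS15 and ADAMTS16, by 1.14, 1.14, 1.12 and 1.31 on the log2 scale (adjusted p = 0.00604, 0.00324, 0.021 and 0.0394 from edgeR). MMP2, a gelatinase, had 94.4 to 186 CPM at the tips, against 214 to 362 CPM at the bases, and ADAMTS2, which trims procollagen, 7.68 to 19.4 CPM against 22.7 to 38.1 CPM, both with no overlap. The summed level of the list was 713 to 1010 CPM (median 817) at the tips and 1020 to 1330 CPM (median 1150) at the bases, lower at the tip in 7 of 7 rams. ADAMTS15 missed the threshold without ram 871772, 871787, 871868 or 871932 (adjusted p up to 0.0663) and ADAMTS16 without any ram but 835507 (up to 0.128). Of 38 collagens, COL4A1, COL4A2, COL6A5, COL15A1 and COL19A1 rose and COL5A1 fell. COL4A2, a chain of basement membranes, rose by 0.58 and COL5A1, a chain of fibrillar collagen, fell by 0.70 on the log2 scale (adjusted p = 0.0151 and 0.0105 from edgeR). COL4A2 missed the threshold without ram 871784, 871787 or 871868 (up to 0.0531), COL6A5 without 871868 or 871932 (up to 0.0651), COL4A1 without any ram but 835507 and 871932 (up to 0.103), COL15A1 without 871784, 871787, 871868 or 871932 (up to 0.0806) and COL19A1, which failed the filter on low counts without 835507, without any other ram but 871868 (up to 0.101). The summed level of the collagens was lower at the tip in 7 of 7 rams, with a median of 10900 CPM at the tips and 17400 CPM at the bases, while the median log2 fold change of the 38 genes was 0.15, so that the sum and the median gene went in opposite directions. Other leading genes coded for secreted or surface proteins. HTRA3, a secreted serine protease, had 15.1 to 26.7 CPM (median 19.5) at the tips, against 34.7 to 58.9 CPM (median 47.7) at the bases, with no overlap. It fell by 1.19 ± 0.11 (SE, edgeR adjusted p = 0.000645). C1QTNF1 fell by 0.93, CPZ, a carboxypeptidase of the matrix, by 1.74 and CCDC80, a matrix protein of fat and skin, by 1.32 on the log2 scale (adjusted p = 0.0013, 0.00231 and 0.00272 from edgeR).

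Of 19 tested markers of adventitial and fascia fibroblasts, 10 fell (1.41% of all genes tested fell) and the other 9 did not pass. The median log2 fold change of the list was -0.83. SCARA5, a ferritin receptor, had 14.5 to 58.5 CPM (median 17.1) at the tips, against 39 to 92.3 CPM (median 85.7) at the bases, and fell by 1.80 ± 0.20 (SE, edgeR adjusted p = 0.00193). CLEC3B, tetranectin, and GPX3, an extracellular glutathione peroxidase, fell by 1.05 and 1.27 on the log2 scale (adjusted p = 0.00193 and 0.00248 from edgeR). The summed level of the list was 743 to 1200 CPM (median 978) at the tips and 1200 to 2070 CPM (median 1730) at the bases, and lower at the tip in 7 of 7 rams. TNXB and SFRP4, given above, are members as well. The 14 general fibroblast markers, such as collagen I chains, also had a lower summed level at the tip in 7 of 7 rams, at 4000 to 13800 CPM (median 9920) over the tips and 11000 to 22100 CPM (median 16500) over the bases. Their median log2 fold change was -0.18, and 0 of them passed with edgeR, where 3 had an unadjusted p under 0.05 with higher and 6 with lower values, DESeq2 called 1 higher and 4 lower and limma-voom called 2 lower. The part of these marker levels in the changes of single genes was not tested.

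Of 19 tested markers of macrophages and dendritic cells, 8 fell (1.41% of all genes tested fell), with a median of -0.46 for the list. They were MRC1, CSF1R, C1QA, C1QB, C1QC, CD14, LYVE1 and FOLR2. CD14, a receptor for bacterial lipopolysaccharide, had 5.27 to 8.14 CPM (median 6.58) at the tips, against 9.43 to 18.8 CPM (median 14.5) at the bases, with no overlap. C1QC, a chain of complement C1q, fell by 1.15 ± 0.15 (SE, edgeR adjusted p = 0.00336), FOLR2, a folate receptor of resident macrophages, by 0.94 (adjusted p = 0.0121) and LYVE1, a hyaluronan receptor also found on lymphatic vessels, by 2.46 on the log2 scale (adjusted p = 0.0101). Of the 7 lymphatic markers LYVE1 alone fell. The summed level of the macrophage list, of which CD68 had no counts, was 74.8 to 162 CPM (median 88.7) at the tips and up to 302 CPM (median 209) at the bases. It was lower at the tip in 7 of 7 rams, though the lowest base lay below the highest tip, so that the groups overlapped. MRC1, CSF1R, C1QA and C1QB missed the threshold without ram 871772, 871784, 871787 or 871869 (adjusted p up to 0.125, 0.0988, 0.0662 and 0.0527), MRC1 and CSF1R also without 871868 and CSF1R also without 871932. In 7 sets of 6 rams, 4 to 8 members of this list and 7 to 10 of the adventitial list fell.

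Several markers of the dermal papilla, the cluster of fibroblasts that instructs the hair follicle, went the other way. Of 19 tested, 8 rose (1.22% of all genes tested rose), namely CORIN, RSPO4, WIF1, TBX18, HEY2, NDNF, SCUBE3 and MAP2. The median of the list was 0.27, with 12 members above 0 and 7 below, and 3 were lower at an unadjusted p under 0.05 with edgeR. Its summed level was 438 to 769 CPM (median 650) at the tips and 489 to 743 CPM (median 676) at the bases, and higher at the tip in 4 of 7 rams. CORIN, a serine protease that activates a natriuretic peptide, had 1.15 to 9.5 CPM (median 6.66) at the tips, against 0.327 to 1.29 CPM (median 0.656) at the bases, and 1 tip, that of D/D ram 871787, lay within the range of the bases. CORIN rose by 2.81 ± 0.34 (SE, edgeR adjusted p = 0.00272). HEY2, a target of Notch and BMP signals, rose by 0.80 with no overlap (adjusted p = 0.0135 from edgeR, and 0.0528 without ram 871868). NDNF missed the threshold without ram 871772, 871784, 871868 or 871932 (up to 0.0569) and MAP2 without any ram but 835507 and 871784 (up to 0.141). In the 7 sets of 6 rams, 2 to 7 genes of the list rose. The 22 wool follicle genes had a median of -0.14, and 0 passed with edgeR, where 1 had an unadjusted p under 0.05, DESeq2 and limma-voom also called 0, and edgeR without ram 835507 called 4 higher and 1 lower with a median of 0.24.

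Of 20 tested keratinocyte markers of the epidermis 3 rose (1.22% of all genes tested rose), with a median of 0.34 for the list. KRT1, a keratin of the upper epidermis, had 2460 to 20800 CPM (median 9760) at the tips, against 2110 to 9270 CPM (median 3130) at the bases, and rose by 1.35 (adjusted p = 0.0326 from edgeR, but 0.194 from DESeq2). KRT2, a keratin of late differentiation, had 1210, 1000 and 193 CPM at the D/D tips and 493, 6940, 323 and 3600 CPM at the A/A tips, against 64.3, 79.2 and 20.1 CPM at the D/D bases and 572, 140, 24.8 and 209 CPM at the A/A bases. Only ram 835507, the first of the A/A rams in this order, had less KRT2 at the tip than at the base. The log2 fold change was 3.63 ± 0.56 (SE, edgeR adjusted p = 0.00918) with all rams and 4.09 without this one. DSG3, a desmoglein that joins keratinocytes, had 194 to 268 CPM at the tips, against 93.8 to 186 CPM at the bases, and rose by 0.67 (adjusted p = 0.0203 from edgeR). KRT1 and DSG3 each missed the threshold without any 1 of the rams 871772, 871787, 871868 and 871932 (adjusted p up to 0.109 and 0.079), KRT1 also without 871784 and DSG3 also without 871869. Without ram 835507, 6 of the keratinocyte markers rose, and with other rams left out as few as 1. Of 12 sweat gland markers, the simple keratins KRT8, KRT18 and KRT19 fell by 0.72, 0.86 and 0.66 on the log2 scale (adjusted p = 0.0214, 0.0109 and 0.0293 from edgeR). KRT8 missed the threshold without ram 871787 or 871868 (up to 0.0717) and KRT19 without any ram but 835507 and 871869 (up to 0.0983).

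Neuronal transcripts, of which skin holds those of nerve endings and of other cells that share them, were few. Of 12 tested, 3 rose, namely STMN2, which codes for stathmin 2, UCHL1, a ubiquitin hydrolase, and NTS, the neurotensin precursor, by 1.32, 1.03 and 4.36 (adjusted p = 0.0214, 0.0461 and 0.01 from edgeR). The summed level of the list was 33.6 to 46.7 CPM (median 38.1) at the tips and 19.4 to 28.5 CPM (median 24.9) at the bases, with no overlap, while the median log2 fold change was 0.45. STMN2 missed the threshold without ram 871772, 871868 or 871932 (up to 0.0715) and UCHL1 without any ram but 835507 and 871932 (up to 0.138).

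**Figure D4:**
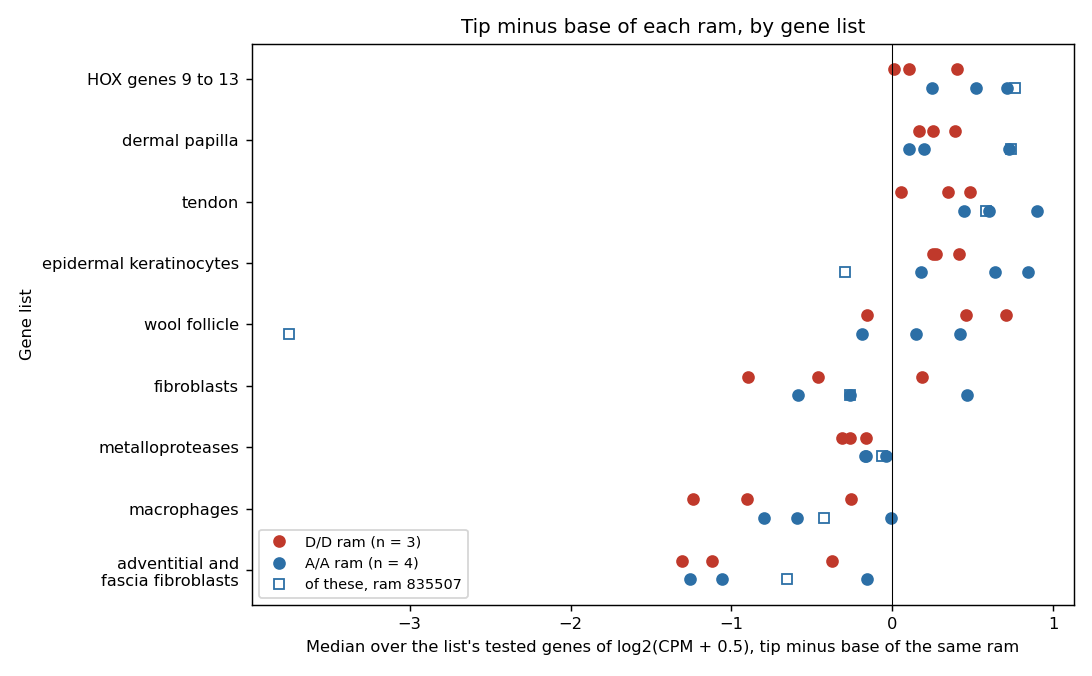
Tip minus base of the same ram (horizontal axis, log2(CPM + 0.5), median over the tested genes of a list) for 9 gene lists, with a point per ram, D/D in red (n = 3) and A/A in blue (n = 4), and the open square for A/A ram 835507. The medians of adventitial and macrophage markers lie below 0 in each ram, though that of macrophage markers in A/A ram 871932 is only -0.00918. Those of dermal papilla markers lie above 0, while ram 835507 lies at -3.75 for wool follicle genes, far from the other 6.

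The 378 genes that passed in neither genotype were not bound to all 7 rams, since all but 3 of them passed in at least 1 set of 6 rams, and FCGBP and COMP did so in all 7 sets. FCGBP, which codes for a mucus protein that binds the Fc part of IgG, had 22.4, 8.45 and 8.28 CPM at the D/D tips and 67.2, 11.5, 35.4 and 12.7 CPM at the A/A tips, against 82.3, 99.3 and 44.6 CPM at the D/D bases and 185, 36, 88.6 and 118 CPM at the A/A bases. Each ram had a lower value at its tip, although the tip of ram 835507 exceeded 2 of the bases of other rams. FCGBP fell by 2.19 on the log2 scale (SE 0.27, edgeR adjusted p = 0.00308), with an adjusted p = 0.0523 in D/D and 0.0528 in A/A. COMP showed a change of like size in each genotype, with log2 fold changes of 3.10 in D/D and 3.06 in A/A (adjusted p = 0.0956 and 0.0542 from edgeR). Its tips had 2.77 to 32.7 CPM (median 16.8), against 0.563 to 4.31 CPM (median 1.73) at the bases, and only the tip of ram 835507, at 2.77 CPM, lay within the range of the bases. Without that ram the log2 fold change of COMP was 3.40.

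Further genes of this set were lower at the tip. IL17RB, a subunit of the receptor for interleukin 25, had 0.194 to 1.14 CPM (median 0.382) at the tips, against 1.39 to 3.14 CPM (median 1.86) at the bases, and fell by 2.21 ± 0.28 (SE, edgeR adjusted p = 0.00351). FABP7, a fatty acid binding protein of glia, had 0.641 to 2.03 CPM (median 0.976) at the tips, against 2.31 to 17.3 CPM (median 4.88) at the bases, and its log2 fold change was -2.44 in either genotype and over all rams (SE 0.33, edgeR adjusted p = 0.00475). Neither gene had overlapping groups. ACSM2B, an acyl-CoA synthetase of medium chains that has near-identical relatives, so that its reads may be shared, had 0 to 4.31 CPM (median 0.142) at the tips, against 0.328 to 54.1 CPM (median 1.08) at the bases. Its log2 fold change of -3.80 (adjusted p = 0.00554 from edgeR) rested in part on ram 835507, which had both highest values, and the gene failed the filter on low counts without this ram. The phosphodiesterase PDE4C fell by 1.53 and CFAP251, a protein of cilia, by 1.32 on the log2 scale (adjusted p = 0.00766 and 0.00661 from edgeR), both with no overlap between the 7 tips and 7 bases.

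Higher at the tip, and called with 7 pairs but in neither genotype, were PPP2R2C, a regulatory subunit of protein phosphatase 2A, with a log2 fold change of 1.42 (SE 0.20), UNC5C with 1.74 and KRT78, a keratin of stratified epithelium, with 0.88 (SE 0.13), at adjusted p = 0.00554, 0.00554 and 0.00661 from edgeR. KRT78 had 11.6 to 57.6 CPM (median 35.1) at the tips, against 5 to 26 CPM (median 21.6) at the bases, so that rams differed more among themselves than a ram differed between its ends, while the tip was the higher in 7 of 7. PGLYRP1, a peptidoglycan recognition protein of innate defence, rose by 1.61, DDAH1, which degrades an inhibitor of nitric oxide synthase, by 0.85 and RBP2, a retinol binding protein, by 3.21 (adjusted p = 0.00732, 0.00736 and 0.0082 from edgeR). RBP2 was at 0 in at least 1 base, and its highest base had 0.806 CPM where the median of the tips was 2.09 CPM.

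**Figure D5:**
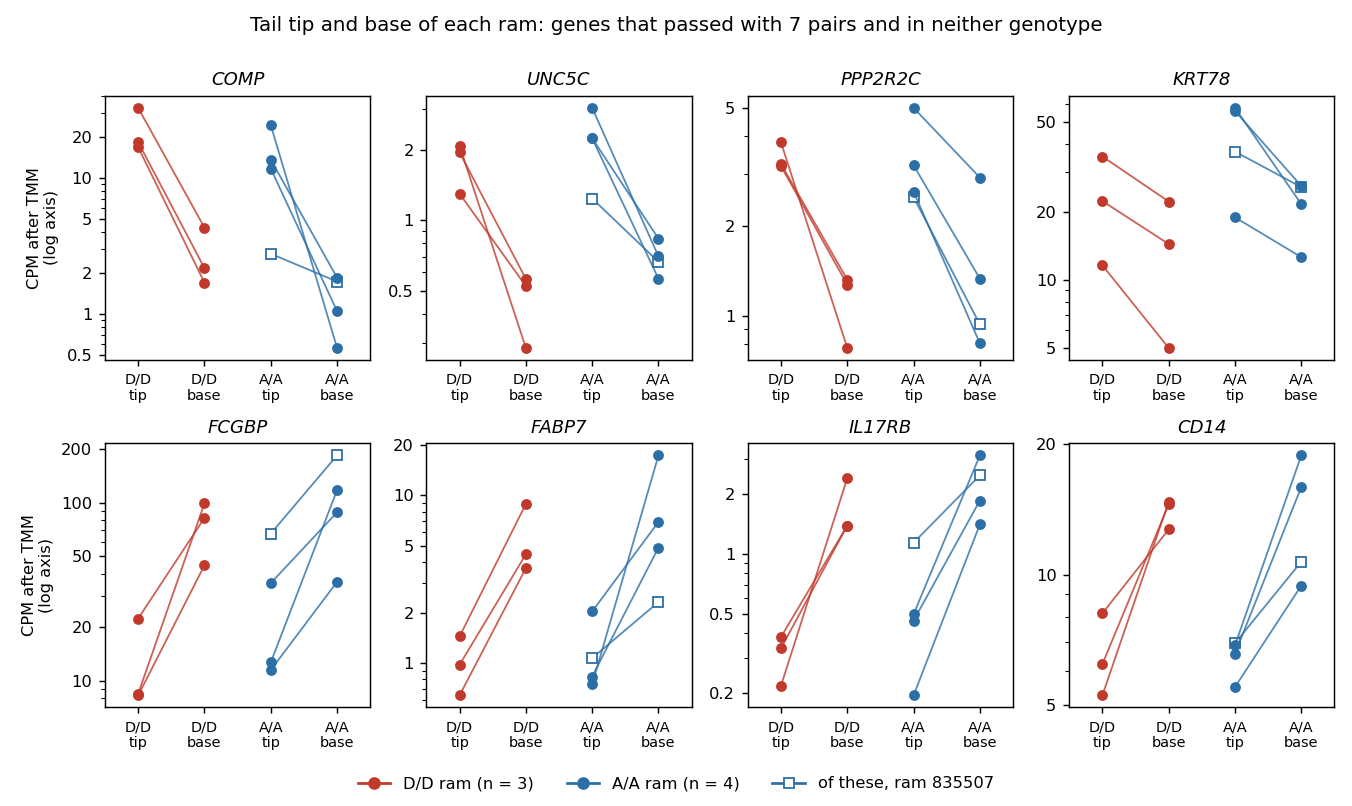
CPM after TMM (vertical, log axis) at the tail tip and base of each ram for 8 genes that passed with 7 pairs and in neither genotype, with a line per ram, D/D in red (n = 3) and A/A in blue (n = 4), and the open square for A/A ram 835507. COMP, UNC5C, PPP2R2C and KRT78 are higher and FCGBP, FABP7, IL17RB and CD14 lower at the tip in each of the 7 rams.

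Of 28 tested chemokines and receptors 3 fell, where 1.22% of all genes tested rose and 1.41% fell. The summed level of the chemokine list was higher at the tip in 5 of 7 rams (median 785 CPM at the tips and 749 CPM at the bases). CCL26 and CCL24, which attract eosinophils, had 0.325 to 6.11 CPM (median 0.585) and 0.32 to 2.54 CPM at the tips, against 6.06 to 14.4 CPM (median 10.2) and 2.3 to 8.06 CPM at the bases. The tip with 6.11 CPM of CCL26 was that of ram 835507, and it alone overlapped the bases. CCL26 fell by 3.61 and CCL24 by 2.26 on the log2 scale (adjusted p = 0.00259 and 0.0101 from edgeR), and CCL27, a chemokine of keratinocytes, by 0.91 (adjusted p = 0.00949). Of 27 eicosanoid enzymes, ALOX15, a lipoxygenase, and LTC4S, the synthase of leukotriene C4, fell by 2.90 and 1.23 (adjusted p = 0.0258 and 0.042 from edgeR), both with no overlap. The fall of ALOX15 was larger in D/D than in A/A, as given below. ALOX15 missed the threshold without ram 871772, 871784, 871787 or 871868 (up to 0.0751) and LTC4S without any ram but 835507 and 871784 (up to 0.123). Of 28 genes of fatty acid synthesis ELOVL4, which makes very long chains for the skin barrier, rose by 0.88 and FADS2, a desaturase, fell by 0.99 (adjusted p = 0.0371 and 0.0344 from edgeR), and of 31 genes of fatty acid oxidation and activation ACSM1 and ACSM5 fell by 1.25 and 1.04 (adjusted p = 0.0118 and 0.0368). CIDEC, a lipid droplet protein, was the 1 of 15 adipocyte markers that fell (-1.86, adjusted p = 0.0359 from edgeR), and 6 fell and 2 rose without ram 835507. ELOVL4, FADS2, ACSM5 and CIDEC passed in 1 or 2 of the sets of 6 rams, in each case in the set without 835507, and their adjusted p reached 0.114, 0.0801, 0.099 and 0.108 in the others.

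Whether the change differed with genotype, D/D minus A/A, was tested in the same fit as an interaction. It passed for 0 of 17475 genes with edgeR (0.0%), where 991 had an unadjusted p under 0.05. Limma-voom on the ram sums also called 0, DESeq2 on the ram sums 5, edgeR on single libraries 15 and DESeq2 on single libraries 181. Of the 460 genes 37 had an unadjusted interaction p under 0.05, and of the 378 genes 15. HOXC5 fell by 1.36 in D/D and 0.45 in A/A on the log2 scale (unadjusted p = 0.0039 for the difference, adjusted p = 0.796 from edgeR), and HOXC11 had log2 fold changes of 0.51 in D/D and 1.76 in A/A (unadjusted p = 0.0082). AMELX, amelogenin of the enamel matrix, had 1.68 in D/D and 3.18 in A/A (unadjusted p = 0.0115). ALOX15 had -5.07 in D/D and -1.83 in A/A (edgeR unadjusted p = 0.00498), with a median of only 0.138 CPM at the tips. None of these differences passed the adjustment, and since the tip lies farther from the base in D/D tails, genotype and distance cannot be told apart in them.

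The mid-tail, which the test did not use, lay between the ends for nearly all called genes. The mean over rams of the mid-tail was between those of tip and base for 206 of the 214 higher genes (96.3%) and 240 of the 246 lower genes (97.6%), and the median share of the change reached there was 65.5% and 52.4%. HOXC10 had reached its tip level, with a median of 11.6 CPM at the mid-tail and 11.5 CPM at the tip, and TBX3 had 17.7 CPM and 17.4 CPM. SCUBE3, at 22.7 CPM between 42.9 CPM at the tip and 12.7 CPM at the base, and CORIN, at 1.97 CPM between 6.66 CPM and 0.656 CPM, had covered less of the way. Since tip and base values chose the genes, a position between them is in part fixed by the choice, and no test was made.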

How the data were processed

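RNA of tail skin was sequenced from 41 libraries, prepared with the CorALL kit from RNA selected on oligo(dT) beads and reverse transcribed with random primers. Per the paper's methods and the submitters' notes, reads were checked with FastQC 0.11.9, mapped with ContextMap 2 using BWA and assigned strand-specifically to the genes of the RefSeq annotation of ARS-UI_Ramb_v3.0 with featureCounts. The version of featureCounts is not given in the sources used here. The authors deposited raw counts per gene for each library. The 14 columns of the tip were listed under expected counts because their name was read as a genome position by a check of units, while the deposited values are whole counts like the others. No value column was left out (0 columns).

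Both libraries from one ram at one position were added up. Of 31182 genes, 17475 had at least 10 counts (about 0.366 CPM) in 7 of the 14 ram sums and were tested with edgeR 4.0.16 in R 4.3.3 (quasi-likelihood F test, TMM normalization, ram as a block, Benjamini-Hochberg adjustment over all genes tested). The pairing comes from the labels, since tip and base are of the same animal, and same-ram deviations correlated at 0.256 to 0.623 over the 7 rams. A gene was called at an adjusted p under 0.05. Standard errors are the log2 fold change divided by the square root of F. The residual degrees of freedom were 6. A second fit gave each genotype its own change and their difference. Values are CPM after TMM, and per-ram differences are log2(CPM + 0.5). The exact permutation test flipped the signs of the 7 differences (all assignments, two-sided). Intervals of count ratios are exact conditional binomial ones at 95% and cover counting error only. Levels in CPM are not per length and were not compared between genes. The scripts were tested on simulated data.

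Genes were named by a fixed rule. It took the 15 genes with the smallest p in each direction and the 15 among those called in neither genotype, with a mean of at least 1 CPM, the same direction in all 7 rams and a symbol not starting with LOC, then up to 4 called members of each gene list with the smallest p, and the genes that the study discussed. Not all genes that the rule took are described, and MAP6, OMG, TSKU, CLSTN2, DGKE and GLIPR2 are among those left out. Other list members are named where a count is spelled out. The lists hold textbook pathway members and cell type markers. The libraries, lists and tests were chosen with earlier results of these data known. Alternatives were DESeq2 1.42.0, limma-voom (limma 3.58.1), RLE normalization, library totals, other filters, single libraries, all 21 ram sums, no block, equal weight of the genotypes and each ram left out. The fits of each genotype alone, the left-out rams and the missing block for single genotypes and their difference, and the lists without ram 835507 were added after the data were seen. Some items are not reported here.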

Additional observations from a re-analysis of the deposited data

Results flagged for a closer look

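In 4 of 116 named genes (3.45%) a single ram lay far from the other 6 in the difference of tip minus base, in log2(CPM + 0.5). Chance flags about 1 in 20 groups. KRT2 was at -0.216 in A/A ram 835507, where the other rams had 3.23 to 5.62. ACVRL1 was at -0.0474 in the same ram, against -1.15 to -0.757 in the others. ALOX15 was at -3.77 in D/D ram 871869, where the others had -1.56 to -0.511. GPX3 was at -2.15 in D/D ram 871787, where the others had -1.35 to -0.879.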

How the results depend on the processing

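With edgeR, 7 pairs and the strict thresholds, 80 genes passed, and at an adjusted p under 0.05, 214 were higher, 246 lower and 378 called in neither genotype. Without the replicate block, that is without the pairing by ram, these counts were 38, 34, 74 and 88, with 22 genes within A/A in place of 81 and 0 within D/D in place of 21 (1124 at an unadjusted p under 0.05 with edgeR, 397 adjusted with DESeq2 in the paired design). All 21 ram sums gave 235, 441, 518 and 649, edgeR on single libraries 314, 1116, 1115 and 825, DESeq2 on single libraries 505, 1438, 1479 and 847, library 1 alone 12, 67, 52 and 117 and library 2 alone 29, 102, 150 and 227. DESeq2 on ram sums gave 357 under the strict thresholds, 541 higher and 604 lower, and no filter on low counts gave 202, 323 and 384. Leaving out a ram gave 20 to 202 under the strict thresholds, 58 to 561 higher, 126 to 536 lower and 135 to 871 in neither genotype, the highest without ram 835507. Fitted alone, A/A gave 29 and D/D 498 genes, and 248 of the genes called with 7 pairs passed in neither. Leave-one-out counts were 0 to 187 within A/A and 0 to 131 within D/D. The 0 within A/A came without ram 871772 or 871932 (2422 and 1941 unadjusted), and the 0 within D/D without 871787, 871868 or 871869 (1241, 1487 and 1282 unadjusted). DESeq2 called 5 genes for the difference between genotypes, and each left-out ram 0 with edgeR (471 to 1686 unadjusted). Single libraries treat the 2 libraries of a ram as separate samples. RLE, library totals, limma-voom, the filter at 1 CPM and equal weight of the genotypes kept the 3 counts with 7 pairs within 1.5 times. No named gene turned its direction under any alternative run. The cause of the other shifts was not tested, and depth limits mainly genes near the filter.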

Other observations

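Further genes were picked after their values were seen and are given as values. AOC1, which codes for diamine oxidase, had a log2 fold change of -4.84 ± 0.59 (SE, edgeR adjusted p = 0.00289) and was lower at the tip in 7 of 7 rams. PAX1, a paired-box factor of the axial skeleton, had 2.76 (SE 0.53, adjusted p = 0.0214) and OSR1, an odd-skipped factor of connective tissue, -1.01 (SE 0.21, adjusted p = 0.0276), each in 7 of 7 rams. APOD, a lipocalin, and EDIL3, a matrix ligand of integrins, rose by 1.03 and 1.08 (adjusted p = 0.00661 and 0.01), and LAMA2, a laminin chain, and GPNMB, a glycoprotein of pigment cells and macrophages, by 0.81 and 0.77 (adjusted p = 0.0199 and 0.0188). CATHL3, a cathelicidin of antimicrobial defence, rose by 1.78 ± 0.32 (SE, edgeR adjusted p = 0.0179) in 6 of 7 rams.

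In 8 lists 0 genes passed with edgeR, namely those of smooth muscle and pericytes, Schwann cells, melanocytes, T, NK and B cells, mast cells, blood cells, immediate early genes and heat shock genes. Of their 104 tested entries, 9 were higher and 21 lower at an unadjusted p under 0.05, DESeq2 called 2 higher and 6 lower, limma-voom called 0, and without ram 835507 edgeR called 1 higher and 9 lower. All 7 tested melanocyte markers had log2 fold changes below 0, with a median of -0.45.

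The lists not described above held few calls. Of 32 proteoglycans 2 rose (PRG4 and HAPLN1) and 1 fell (PODN), of 14 cartilage and bone markers 1 rose (HAPLN1), of 13 sebaceous markers 1 rose (MOGAT1) and 1 fell (FADS2), of 12 skeletal muscle markers 1 fell (TTN) and of 22 endothelial markers 1 fell (CD300LG). With 1 ram left out, edgeR called TTN in 1 and PODN, MOGAT1 and CD300LG in 2 of the 7 sets, the set without ram 835507 among them, and the adjusted p in the others reached 0.103, 0.103, 0.0856 and 0.0764. Of 17 tested genes that the study discussed 7 rose and 4 fell, and this list was chosen by the study on these samples, so that its direction is not independent evidence.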
